A study of Mus musculus with 5 samples.

Results

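The 9 genes described here encode receptors that guide leukocytes along gradients of chemokines, chemerin or oxysterols, namely Ccr1, Ccr2, Ccr7, Cx3cr1, Cxcr2, Cxcr4, Ccrl2, Cmklr1 and Gpr183. They were chosen by name, as every probe set of the expression table whose platform annotation gives exactly 1 gene symbol, that of 1 of these genes. This gave 16 probe sets of 45037, or 9 genes of 18193. Expression was measured in progenitors sorted from marrow of wild-type C57BL/6 mice on 5 Affymetrix arrays, 3 of common dendritic cell progenitors (CDP) and 2 of common myeloid progenitors (CMP). CDP, which give rise to dendritic cells, were sorted as lineage-negative, Sca-1-negative cells with intermediate c-Kit that carried CD34, Flk2 and CD115 and lacked CD16/32. CMP, which can form every myeloid lineage, had high c-Kit, likewise carried CD34 and Flk2 and lacked Sca-1 and CD16/32, and were also negative for CD115 and CD11c. The series' title concerns IRF-8 in dendritic cell commitment and neutrophil production, and no Irf8 mutant sample was analysed here. Age, sex and whether arrays came from separate animals are not given in the labels, so the p-values speak only for the scatter among these 5 preparations, part of which may be technical.

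Chemoattractant receptors are seven-helix proteins that signal through inhibitory G proteins, whose beta-gamma subunits activate PI3K gamma and the Rac pathway to turn a cell towards the source of its ligand. Cxcr4 holds stem and progenitor cells in marrow, where stroma makes its ligand Cxcl12. Ccr2 lets monocytes leave marrow, Cx3cr1 marks monocytes and progenitors on the way to macrophages and dendritic cells, and Gpr183 positions B cells and dendritic cells in spleen and lymph node along gradients of hydroxylated cholesterol. Ccr7 takes mature dendritic cells to lymph nodes, Cxcr2 recruits neutrophils and Ccr1 recruits neutrophils and monocytes. Cmklr1 is the signalling receptor for chemerin, and Ccrl2 binds chemerin without signalling.

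Of the 9 genes, Gpr183, Cx3cr1 and Ccr2 were higher in CDP, Cxcr4 was bright in both populations with overlapping values, and Ccr7, Cxcr2 and Cmklr1 stayed below the detection level of log2 5 on every array. Ccr1 was seen on a single CDP array and Ccrl2 on a single CMP array. Testing required log2 5 on at least 2 of the 5 arrays, a level that 7 of the 16 receptor probe sets met, covering Gpr183, Cx3cr1, Ccr2 and Cxcr4. In limma, with adjusted p-values over all 16552 tested probe sets and a threshold of 0.05, 4 of these 7 were higher in CDP and none lower, against 1.31% of all tested probe sets higher and 0.423% lower. On 6 of the 7 every CDP array lay above every CMP array, as on 21.2% of all tested probe sets. The median difference, CDP minus CMP, was 2.03 (log2) over the 7 and 0.12 over all tested probe sets. These 7 passed the filter in part because they are bright in CDP, so their count and median describe them and do not speak for all 16. RNA of a whole population was measured, so more cells with a transcript and more transcript per cell cannot be told apart.

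**Figure D1:**
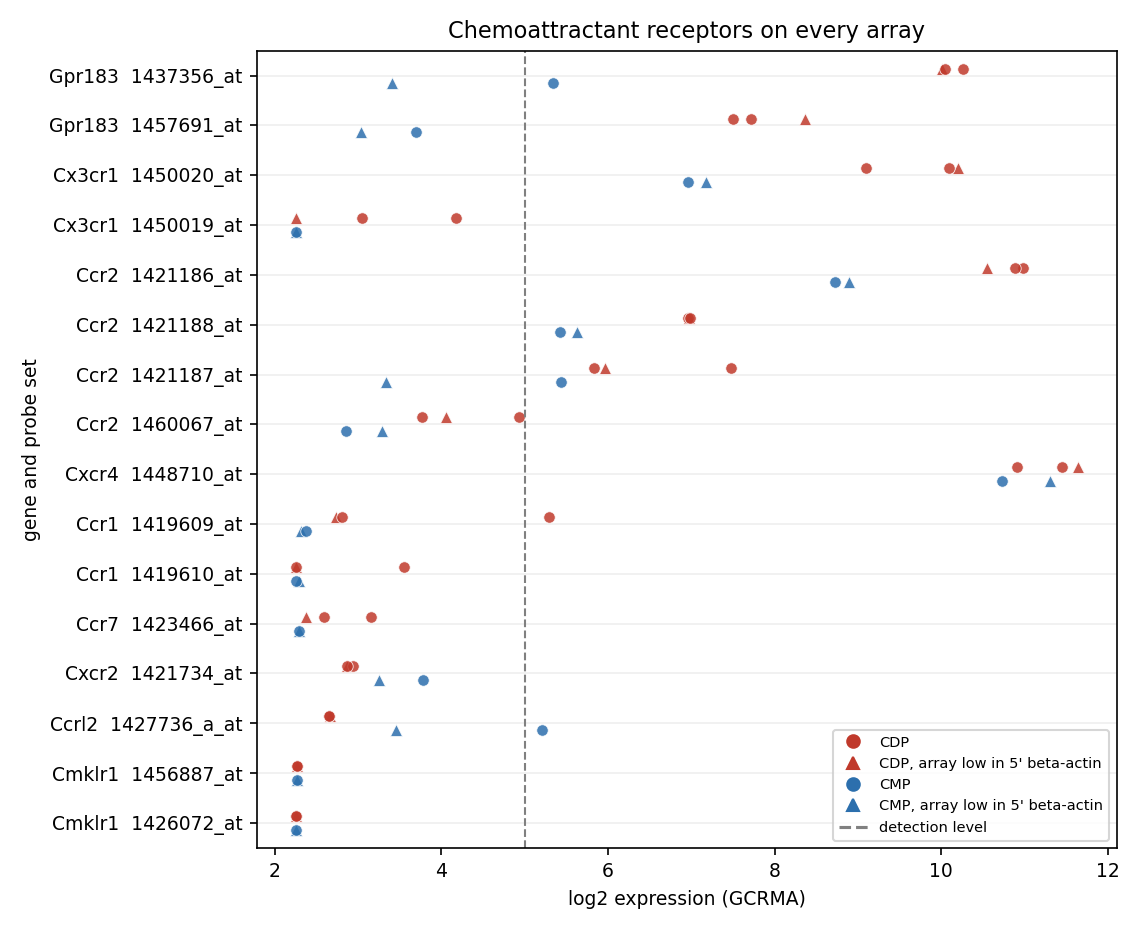
Each row is a receptor probe set and each point its log2 expression (GCRMA) on an array, with CDP in red above CMP in blue, triangles for CDP 1 and CMP 1, whose 5′ beta-actin signal was low, and the dashed line at the detection level of log2 5. Both Gpr183 rows, the brighter Cx3cr1 row and 3 Ccr2 rows have all CDP points above the line and to the right of all CMP points, the Cxcr4 row overlaps, and the rows from Ccr1 down lie mostly below the line.

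The arrays differed within groups as well as between them. The 3′ and 5′ control probe sets of beta-actin, whose gap widens as RNA shortens, differed by 7.35 to 8.05 (log2) on CDP 1 and CMP 1 and by 1.81 to 4.48 on the other 3 arrays, so CDP 1 and CMP 1 are called the 5′-poor pair. The name rests on beta-actin alone, since for Gapdh the same gap was widest on CDP 3, at 6.60, against 4.64 on CDP 1 and 4.71 on CMP 1. Across tested probe sets CMP 1 correlated with CDP 1 at 0.924 and with CMP 2 at 0.895. The sorting genes followed the gate in part. All 7 with a probe set were tested, with 12 probe sets, of which 2 were higher in CDP, 1 lower and 9 not called. Over all tested probe sets 1.31% were higher and 0.423% lower. Kit was lower in CDP (6.0-fold, adjusted p = 0.032), Itgax was higher, and Csf1r, which encodes CD115, was higher on 1 of its 3 probe sets but present in CMP too, at up to 11.75. Of 16 dendritic cell marker genes 6 were detected on at least 1 array, and 4 were tested, with 5 probe sets. Itgax alone was called, on 1 probe set, beside 1.31% higher over all tested probe sets. It encodes CD11c, for which CMP were sorted negative. The 10 marker genes not detected, Xcr1, Cd209a and Siglech among them, stayed below log2 5 on every array. Few calls survived with 4 arrays. Without CDP 2, CDP 3, CMP 1 or CMP 2 no probe set in the table passed limma, with 1538, 1508, 2672 and 2835 at an unadjusted p under 0.05, and without CDP 1 there were 44 calls. Each call below therefore ends when any of those 4 arrays is left out. Of the called probe sets of the receptors and of their ligand and signalling genes, only the second Gpr183 probe set passed without CDP 1 (adjusted p = 0.0481). The direction of all 7 receptor probe sets was the same in each of these fits. For 6 of the 7 this was fixed in advance, as every CDP array lay above every CMP array.

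The sequences before the starts of the genes that moved are shown because Gpr183, Cx3cr1 and Ccr2 differed in the same direction, and that of Cmklr1, which was at the floor, because it holds a match to a searched motif. RefSeq gave 10 promoters for 8 of the 9 genes (GRCm38.p6). The 250 bases before each start were searched on both strands for GAGGAAGT (a PU.1 motif), the ETS-IRF composite with a gap of 2 or 3 bases, the interferon response motif and TTGCGCAA (a C/EBP motif), where the composite with the gap of 2 and the interferon response motif can overlap. Among the 32851 promoters of the table these were present in 2.44%, 2.30%, 2.33%, 2.98% and 0.164%. Of the 10 receptor promoters 9 held none of the 5, and that of Cmklr1 held the composite with a gap of 2 on the opposite strand, beginning 122 bases before the start and printed in capitals. The sequences run 5′ to 3′ along the gene.
Gpr183, chr14:121965194-121965443, minus strand: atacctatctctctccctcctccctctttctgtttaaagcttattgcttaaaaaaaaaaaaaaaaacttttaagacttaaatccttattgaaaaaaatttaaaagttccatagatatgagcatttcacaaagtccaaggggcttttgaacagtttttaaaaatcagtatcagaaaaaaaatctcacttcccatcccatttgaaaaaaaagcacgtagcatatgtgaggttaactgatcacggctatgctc
Cx3cr1, chr9:120068297-120068546, minus strand: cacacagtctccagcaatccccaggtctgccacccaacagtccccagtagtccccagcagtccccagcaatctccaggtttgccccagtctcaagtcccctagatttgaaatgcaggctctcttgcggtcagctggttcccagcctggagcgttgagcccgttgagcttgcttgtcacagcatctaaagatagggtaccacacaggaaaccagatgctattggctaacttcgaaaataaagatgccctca
Ccr2, chr9:124101933-124102182, plus strand: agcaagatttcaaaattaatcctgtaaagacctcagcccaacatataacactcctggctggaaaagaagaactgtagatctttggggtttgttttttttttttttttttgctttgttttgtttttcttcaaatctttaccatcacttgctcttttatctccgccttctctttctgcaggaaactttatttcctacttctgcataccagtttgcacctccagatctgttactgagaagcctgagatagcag
Cmklr1, chr5:113643604-113643853, minus strand: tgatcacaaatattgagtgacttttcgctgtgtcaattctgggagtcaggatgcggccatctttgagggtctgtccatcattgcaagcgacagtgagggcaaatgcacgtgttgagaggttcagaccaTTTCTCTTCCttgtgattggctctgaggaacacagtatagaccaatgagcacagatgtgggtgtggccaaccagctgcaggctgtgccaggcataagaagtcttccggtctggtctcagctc
None of these letters was found in the windows of Gpr183, Cx3cr1 or Ccr2, which says nothing of the factors named.

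Gpr183, also called EBI2, is the receptor for dihydroxylated cholesterols. On probe set 1437356_at it was at 10.01, 10.05 and 10.25 (log2) on CDP 1, CDP 2 and CDP 3, against 3.41 and 5.33 on CMP 1 and CMP 2. The 3 CDP values lay within 0.24 of each other, and the nearest CMP array was 4.68 below them. The fitted difference was 5.73 ± 0.58 (SE, adjusted p = 0.0164). With values below the detection level set to it, Gpr183 was at least 30.6-fold higher in CDP, and that bound lay between 27.3-fold and 34.4-fold with any array left out. The fitted difference itself was 4.77 without CMP 1 and 6.70 without CMP 2. The second probe set, 1457691_at, read 8.37, 7.5 and 7.72 in CDP, against 3.03 and 3.70 in CMP. CMP was thus below detection on both arrays of this probe set, while 1 CMP array was just above it on the other. The second probe set gave 4.50 ± 0.41 (SE, adjusted p = 0.0155), at least 7.27-fold. Both differences were larger within the 5′-poor pair, at 6.60 and 5.34, than between the other arrays, at 4.82 and 3.91, and positive in each.

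Cx3cr1 encodes the receptor for fractalkine, a membrane-bound chemokine. Probe set 1450020_at was at 10.20, 10.09 and 9.10 in CDP, against 7.17 and 6.96 in CMP. Cx3cr1 was therefore detected in both populations, with every CDP array at least 1.92 above both CMP arrays. The difference was 2.73 ± 0.43 (SE, adjusted p = 0.0456), or 6.63-fold, and it was 3.03 within the 5′-poor pair and 2.63 among the others. The second Cx3cr1 probe set, 1450019_at, stayed below detection, at 2.26, 4.18 and 3.05 in CDP and at 2.26 on both CMP arrays, and was not tested.

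Ccr2 encodes the receptor for Ccl2 and Ccl7, the chemokines that draw monocytes out of marrow. Its brightest probe set, 1421186_at, was at 10.55, 10.98 and 10.89 in CDP, against 8.89 and 8.72 in CMP. Ccr2 transcript was thus present in both populations, with a gap of 1.66 between the lowest CDP and the highest CMP array. The difference was 2.00 ± 0.32 (SE, adjusted p = 0.0456), or 4.0-fold, and it was 1.66 within the 5′-poor pair and 2.21 among the others. The other 3 Ccr2 probe sets were dimmer, and none passed. Probe set 1421188_at was at 6.97, 6.96 and 6.98 in CDP, against 5.62 and 5.43 in CMP, a difference of 1.44 ± 0.30 (SE, adjusted p = 0.0849). Probe set 1421187_at was at 5.96, 7.47 and 5.83 in CDP, against 3.34 and 5.44 in CMP, a difference of 2.03 ± 0.78 (SE, adjusted p = 0.284) that was 0.98 without CMP 1 and 3.08 without CMP 2. Probe set 1460067_at reached 3.77 to 4.93 in CDP and 2.85 to 3.28 in CMP, below detection throughout. The 3 tested Ccr2 probe sets all had the CDP arrays above the CMP arrays.

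The calls for Cx3cr1 and Ccr2 were close to the threshold. With each array centred on its median they missed it, at adjusted p = 0.0542 and 0.0552, and with quantile normalization at 0.0529 and 0.0537, while both Gpr183 probe sets passed in each case. Array weights kept the Ccr2 call (adjusted p = 0.0464) but not that of Cx3cr1 (adjusted p = 0.0939). With the 5′-poor pair as a block in the fit, Cx3cr1 and the brightest Ccr2 probe set passed at adjusted p = 0.0110 and 0.0126, both Gpr183 probe sets at 0.00309 and 0.00374, and Ccr2 probe set 1421188_at did as well (adjusted p = 0.0234). In that fit 1438 probe sets of the whole table passed.

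**Figure D2:**
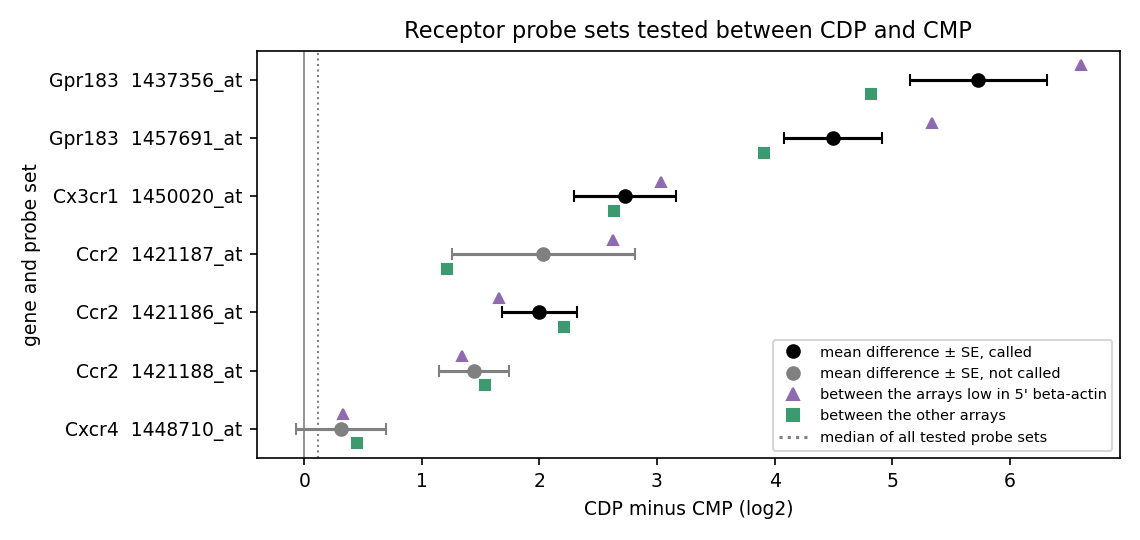
For the 7 tested receptor probe sets, points give the CDP minus CMP difference (log2) with its SE, black where called, triangles the difference within the 5′-poor pair, CDP 1 and CMP 1, and squares that among the other arrays, with a dotted line at the median of all tested probe sets. Gpr183 lies furthest to the right on both probe sets, at 5.73 and 4.50, and Cxcr4 has its error bar across 0.

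Cxcr4 was bright on every array, at 11.63, 11.44 and 10.91 in CDP, against 11.30 and 10.73 in CMP. The groups overlapped, and the lowest CDP array lay below the higher CMP array. The difference was 0.31 ± 0.38 (SE, adjusted p = 0.765), with a 95% interval of -0.62 to 1.24, so that a change of up to about 1.24 on the log2 scale in favour of CDP lies within the error of these arrays. In both groups the 5′-poor array was the brightest.

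Ccr1, the receptor for Ccl3 and other inflammatory chemokines, was above detection on CDP 2 alone. Probe set 1419609_at was at 2.74, 5.29 and 2.80 in CDP, against 2.31 and 2.38 in CMP, and 1419610_at was at 2.26, 3.55 and 2.26 in CDP, against 2.29 and 2.26 in CMP. Markers of mature neutrophils moved with it. Of 13 neutrophil marker genes with a probe set, 10 were detected on CDP 2 and none on any other array, and their summed log2 values were 34.3 to 106.6 over the CDP arrays and 36.2 to 39.5 over the CMP arrays. S100a8 reached 12.52 and Ngp 11.78 on CDP 2. Padi4, Stfa3 and Itgam were not detected there. The chemoattractant receptor genes Ltb4r1 and Fpr2, for leukotriene B4 and formyl peptides, were also above detection on CDP 2 alone, at 5.67 and 6.84, where Fpr2 was picked after its values were seen. The part of neutrophil transcripts in these values was not tested. Cxcr2, the receptor of mature neutrophils for Cxcl1 and Cxcl2, did not follow them. It was at 2.87, 2.94 and 2.87 in CDP, against 3.25 and 3.78 in CMP, below detection throughout and no higher on CDP 2 than on the CMP arrays. Without CDP 2 the fitted differences of the 4 called probe sets were 5.76 and 4.68 for Gpr183, 2.58 for Cx3cr1 and 1.91 for Ccr2. With all arrays they were 5.73, 4.50, 2.73 and 2.00. None of the 4 passed limma without CDP 2. Ccr2 probe set 1421187_at, highest on CDP 2, differed by 1.51 without that array and by 2.03 with all. Ccr2 probe set 1421188_at differed by 1.45 and 1.44, and Cxcr4 by 0.26 and 0.31.

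**Figure D3:**
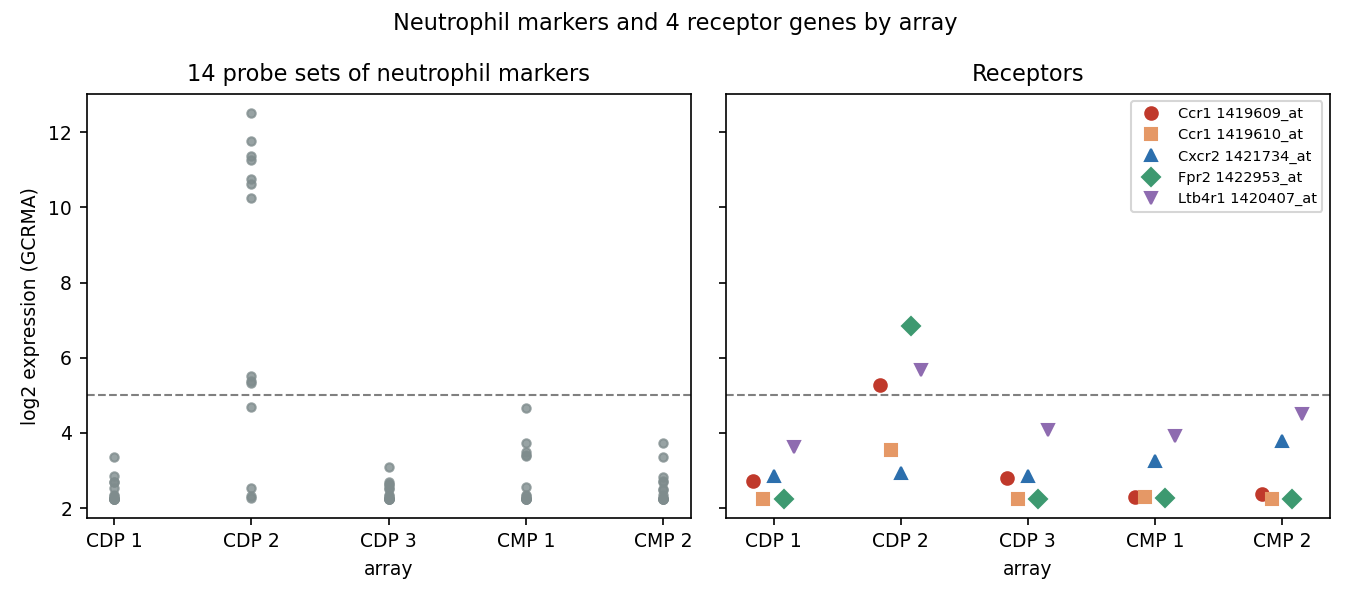
The left panel shows log2 expression (GCRMA) of the 14 probe sets of neutrophil markers on each array, and the right panel that of Ccr1, Cxcr2, Fpr2 and Ltb4r1, with the dashed line at the detection level of log2 5. Neutrophil markers stand above the line on CDP 2 alone, up to 12.52, as do Ccr1, Fpr2 and Ltb4r1, whereas Cxcr2 lies below it on all 5 arrays.

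Ccr7, which takes mature dendritic cells to lymph nodes, was at 2.38, 2.59 and 3.16 in CDP and 2.29 on both CMP arrays. Ccrl2, the chemerin-binding receptor, was at 2.66, 2.65 and 2.65 in CDP, against 3.46 and 5.21 in CMP. Only CMP 2 exceeded the detection level, so Ccrl2 was not tested, although both CMP arrays lay above all CDP arrays. Cmklr1, the signalling chemerin receptor, was at 2.26 to 2.27 on both probe sets and every array, beside the table's lowest value of 2.26. Values at that floor have no order.

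More marker genes of monocytes were detected in CDP than in CMP, and Ccr2 and Cx3cr1 were higher in CDP too. Of 15 monocyte and macrophage marker genes with a probe set, 8 to 9 were detected on the CDP arrays and 3 to 5 on the CMP arrays, with summed log2 values of 114.9 to 138.7 in CDP and 101.1 to 108.8 in CMP. Of their 9 tested probe sets 2 were called higher in CDP, those of F13a1 and Fn1, and 7 were not called. Over all tested probe sets 1.31% were called higher and 0.423% lower. Of the 15 genes 6 stayed below log2 5 on every array, and the macrophage genes C1qa, C1qc and Ms4a7 were at the floor of the table or within 0.03 of it. Of 16 dendritic cell marker genes, 2 to 5 were detected in CDP and 2 in CMP (summed log2 values 103.03 to 120.4 and 90.2 to 91.8). Of 8 B cell marker genes 2 to 3 were detected in CDP and 1 in CMP, of 8 erythroid and megakaryocyte genes 0 to 1 in CDP and 2 to 3 in CMP, and of 6 mast cell and basophil genes 2 to 3 in CDP and 4 in CMP. In limma 3 of 5 tested mast cell and basophil probe sets were called lower in CDP. So was 1 of 2 erythroid and megakaryocyte probe sets, and neither of the 2 B cell ones was called. No T or NK cell marker of 8 genes was detected on any array. The part of such cells in the receptor differences was not tested.

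Other receptors of the family were not detected. Of the other chemokine and atypical chemokine receptors, 16 genes had a probe set and none reached log2 5 on any array, the highest value being 3.98, for Ackr4. In the RefSeq order of protein-coding genes (GRCm38.p6) Ccrl2 lies next to the lactoferrin gene Ltf. Ltf was at 10.61 on CDP 2 and 2.26 on each other array, while Ccrl2 on CDP 2 was at 2.65.

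Receptors for other attractants gave no call. Of 16 such genes with a probe set, 4 were tested, with 6 probe sets, and none passed limma at an adjusted p of 0.05. Over all tested probe sets 1.31% were higher and 0.423% lower, so no call among 6 is close to these shares. The median difference was 1.71, beside 0.12 over all tested probe sets. Gpr18 passed the filter through CDP arrays alone, so this median describes the 6 probe sets and does not speak for the list. S1pr3, a receptor for sphingosine 1-phosphate, was at 9.07, 10.27 and 10.47 in CDP, against 7.44 and 8.32 in CMP on its brighter probe set, a difference of 2.06 ± 0.54 (SE, adjusted p = 0.149). S1pr4, another, differed by 1.52 ± 0.58 (SE, adjusted p = 0.283), and by 0.90 without CMP 1 and 2.15 without CMP 2. S1pr2 did not lean to CDP. It differed by -0.12 ± 0.38 (SE, adjusted p = 0.918) on its brighter probe set and by -0.005 ± 0.65 (SE, adjusted p = 0.999) on the other. Gpr18, a lipid receptor, was at 3.98, 5.43 and 6.31 in CDP, against 3.13 and 2.41 in CMP, at least 1.49-fold higher. Its difference of 2.47 ± 0.70 (SE, adjusted p = 0.173) rests in part on values below detection, and was 3.10 without CDP 1. With the 5′-poor pair as a block, S1pr3 passed on both tested probe sets (adjusted p = 0.0139 and 0.0262) and S1pr4 passed too (adjusted p = 0.0367). With the replicate number as a block the brighter S1pr3 probe set passed (adjusted p = 0.0482).

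Among ligands and the enzymes that make or degrade them, Cyp27a1 was higher and Pf4 lower in CDP. Of 35 genes with a probe set, 8 were tested with 9 probe sets, of which 1 rose, 1 fell and 7 did not pass, beside 1.31% higher and 0.423% lower over all tested probe sets. The median difference was -0.21, beside 0.12 over all. Cyp27a1, a sterol hydroxylase of mitochondria that makes oxysterols, was at 7.47, 8.02 and 7.91 in CDP, against 5.01 and 5.34 in CMP. It was detected on all arrays with no overlap between groups, at 6.16-fold higher in CDP (2.62 ± 0.34 SE, adjusted p = 0.0316). Hsd3b7, which inactivates Gpr183 ligands, differed by -0.60 ± 0.34 (SE, adjusted p = 0.458). Ch25h and Cyp7b1, which make the strongest of them, stayed below log2 5 on every array, as did Cxcl12, Cx3cl1, Ccl2, Ccl7 and the chemerin gene Rarres2, genes named here for the receptors they serve. Pf4, or platelet factor 4, was at 3.16, 3.48 and 3.89 in CDP, against 5.77 and 5.72 in CMP, at least 1.68-fold lower (adjusted p = 0.0450). The Pf4 call was lost with trended variance (adjusted p = 0.0673), array weights (adjusted p = 0.0611) and the filter at log2 4 (adjusted p = 0.0520). Cxcl2, a ligand of Cxcr2, was at 7.24, 9.33 and 8.06 in CDP, against 11.53 and 11.02 in CMP. The groups did not overlap, but the difference of -3.06 ± 0.63 (SE) missed the threshold (adjusted p = 0.0867). Ccl9 differed by -1.30 ± 0.38 (SE, adjusted p = 0.177). With the 5′-poor pair as a block Cxcl2 and Ccl9 both passed (adjusted p = 0.0245 and 0.0317). The Ccr1 ligands Ccl3 and Ccl4 were detected on every array and differed by -0.01 ± 0.83 (SE, adjusted p = 0.999) and -0.21 ± 0.50 (SE, adjusted p = 0.890).

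Downstream of the receptors, both regulatory subunits of PI3K gamma were higher in CDP. Of 46 genes of signalling and its regulators with a probe set, 42 were tested with 86 probe sets, of which 3 rose, 1 fell and 82 did not pass, beside 1.31% higher and 0.423% lower over all tested probe sets. Their median difference was 0.37, beside 0.12 over all tested probe sets. Pik3r5, which encodes the p101 subunit, was at 7.19, 7.57 and 7.78 in CDP, against 4.64 and 4.40 in CMP, at least 5.71-fold higher (3.00 ± 0.34 SE, adjusted p = 0.0217). Pik3r6, which encodes the p84 subunit, was at 8.31, 8.50 and 8.75 in CDP, against 3.66 and 5.26 in CMP on its brighter probe set, at least 10.5-fold higher (adjusted p = 0.0309), and at least 7.13-fold on the other (adjusted p = 0.0229). The fitted Pik3r6 differences of 4.06 and 3.92 were 3.26 and 3.31 without CMP 1, and 4.86 and 4.52 without CMP 2. Neither subunit's groups overlapped. Rgs1, which shortens signalling from chemokine receptors, was at 9.54, 9.38 and 9.53 in CDP, against 11.86 and 11.21 in CMP, 4.15-fold lower in CDP. Its call lay at the threshold (-2.05 ± 0.34 SE, adjusted p = 0.0498), and it was missed with each array centred on its median (adjusted p = 0.0516). Quantile normalization, robust variance, array weights, the filter at log2 4, no filter and leaving out probe sets that may cross-hybridize lost it too (adjusted p = 0.0504 to 0.175). It passed with trended variance, the filter at log2 6 and either block (adjusted p = 0.0125 to 0.0471). Gnai2, the main inhibitory G protein subunit of leukocytes, differed by 0.33 ± 0.33 (SE, adjusted p = 0.696) and Coro1a, an actin regulator of leukocytes, by 1.56 ± 0.37 (SE, adjusted p = 0.119) on their brightest probe sets. With the 5′-poor pair as a block all 3 tested Coro1a probe sets passed, at adjusted p = 0.0326 to 0.0425. These gene lists were chosen with earlier results of the same arrays known.

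**Figure D4:**
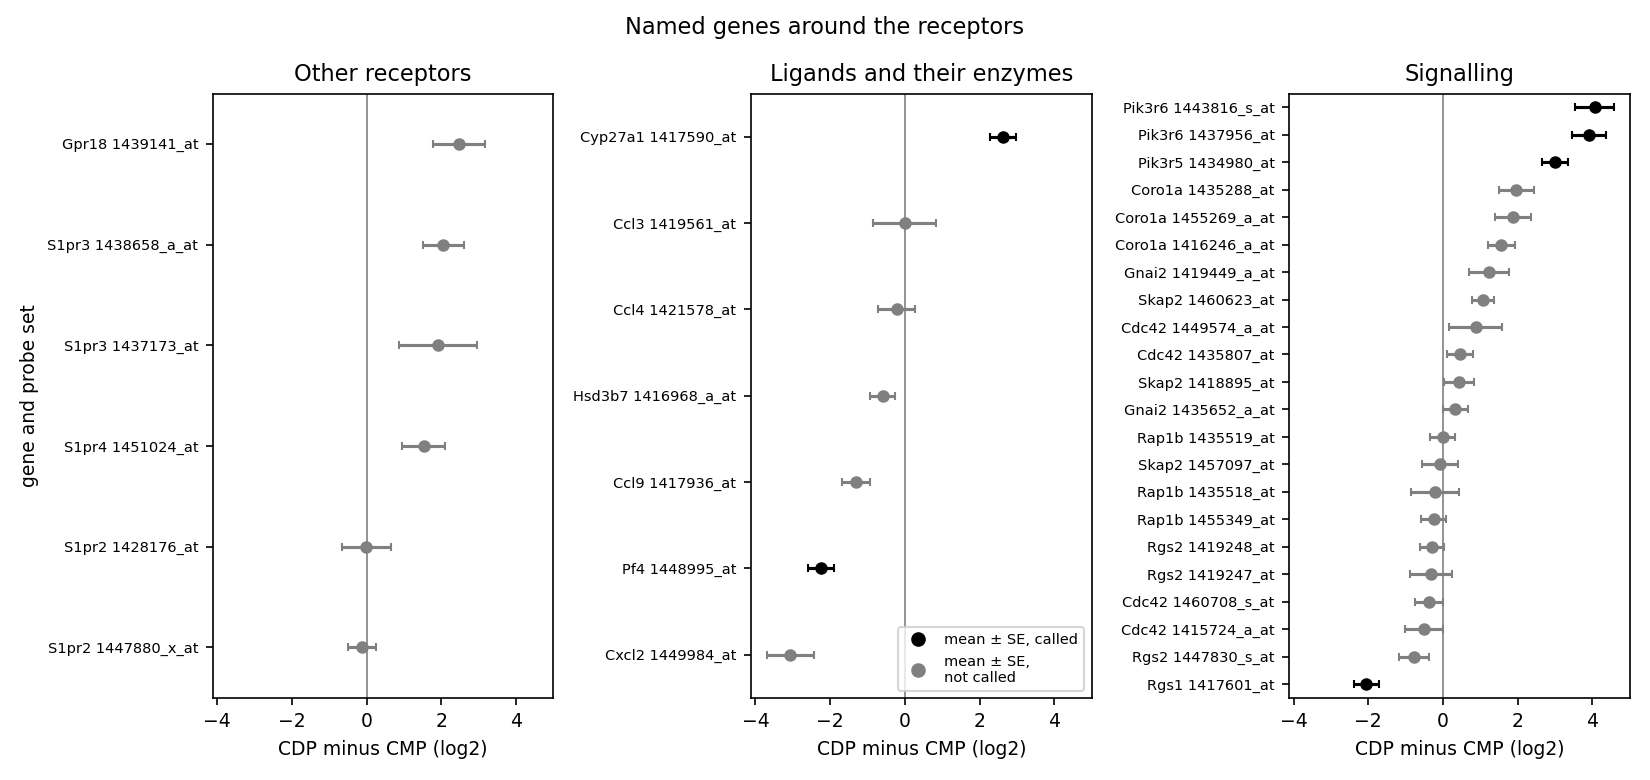
Points give the CDP minus CMP difference (log2) with its SE for tested probe sets of other attractant receptors, of ligands and their enzymes, and of signalling genes that were called or were among the 6 genes of their list with the highest mean, black where called. Pik3r6, Pik3r5 and Cyp27a1 lie to the right, Rgs1 and Pf4 to the left, and no probe set of the other receptors is black.

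The profiles most like each tested receptor over the 5 arrays were found by the distance between log2 values centred on their own mean, so that a distance of 0 would be the same profile. For Gpr183 they were Csf2rb2 (distance 0.58) and Ptpro (0.73) on probe set 1437356_at, and Upk1b (0.53) and Cttnbp2nl (0.54) on 1457691_at. All 4 of these Gpr183 neighbours were called too. For Cx3cr1 they were Ampd3 (0.34) and Rtn4rl1 (0.39), both called. For Ccr2 they were Ifi209 (0.10) and Prkcd (0.12) on the brightest probe set, Creb3 (0.15) and Parpbp (0.16) on 1421188_at and Cdkn2d (0.48) and Lair1 (0.49) on 1421187_at, so that the 3 Ccr2 probe sets had no neighbour in common. Of these Ifi209 was called, and Prkcd missed the threshold at adjusted p = 0.0502. For Cxcr4 they were Dennd1b (0.10) and Ccnt2 (0.12), neither called. With 5 arrays such neighbours are a description of these values only. Closeness to a called profile makes a call likely, so the calls of the neighbours add no support.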

How the data were processed

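The deposited table holds log2 expression values that the authors made with GCRMA, per the submitters' processing notes, from 5 Affymetrix Mouse Genome 430 2.0 arrays. Its version and whether all arrays were processed together are not given in the sources used here. Per the labels' protocols RNA of CDP or CMP was amplified over 2 cycles, and per the design text it came from 10000 to 30000 cells. Such small inputs and the 2 rounds can shorten RNA, and GCRMA sets dim probe sets to a shared floor (2.26), so dim values have no order. Precision is limited by the number of arrays. Titles gave the groups and replicate numbers, and 0 columns were left unmapped. CDP 3 carries the prefix CM in its title instead of BM, although its remaining labels give marrow and CDP.

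Probe sets were named from the platform annotation. Of 45037 without controls, 34945 had 1 symbol, 932 several and 9160 none. Symbols were checked against RefSeq by gene identifier, and 0 changed. The 64 controls were left out, and values were not normalized again. Probe sets with at least 2 arrays at log2 5 were fitted in limma 3.58.1 (R 4.3.3) by lmFit and eBayes as CDP minus CMP, tested 2-sided on 3 residual plus 3.14 prior degrees of freedom, with Benjamini-Hochberg adjustment. The procedure was tested on simulated data with independent normal noise of the same spread for every probe set. Those data lacked differences shared across an array, so the simulation does not speak for the calls on these arrays. Where an array of the dimmer group lay below log2 5, the fold is a lower bound with values below 5 set to 5, while SE and p-values use the deposited values. Named were all 9 receptors, and of other lists the called genes and some of the 6 with the highest mean. For each tested receptor probe set the 2 nearest profiles were named. Members, lists and settings were chosen with earlier results of these data known. Alternatives were quantile and median scaling, other filters, variance models, array weights, blocks, no probe sets that may cross-hybridize, gene means and leaving out arrays.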

Additional observations from a re-analysis of the deposited data

How the results depend on the processing

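The direction of the 7 receptor probe sets was the same in all 118 alternative values, 1 for each probe set in each alternative fit that tested it. On 6 of the 7 every CDP array lay above every CMP array, so refits of the same values could not reverse them. Only Cxcr4 and the rescaled values left the direction free. Pooled over the 4 called probe sets, 34 of 68 such values passed. Against 4 receptor calls and 287 calls in all with limma, quantile normalization, median centring and the filter at log2 4 each left 2 receptor calls, all of them Gpr183, and averaging probe sets per gene called 2 genes, Gpr183 and Cx3cr1. Without a filter 0 receptor probe sets (6 at an unadjusted p under 0.05) and 55 of all passed, where 45037 were tested. Without both 5′-poor arrays, which leaves 1 CMP array assumed to vary like the CDP arrays, 0 of the receptors (5 unadjusted) and 0 of all (4768 unadjusted) passed. Leaving out 1 array gave 0 to 1 receptor calls and 0 to 44 calls in all, and fits without a CMP array rest on the same assumption. With CDP 1 and CMP 1, the 5′-poor pair, as a block 1438 of all passed. CDP and CMP share the replicate numbers 1 and 2 but no label says what a number marks. With the replicate block 608 of all and 5 receptor probe sets passed, Ccr2 probe set 1421187_at being added (adjusted p = 0.0303). Deviations from the group means correlated at 0.606 between CDP 1 and CMP 1 and at 0.579 between CDP 2 and CMP 2. The deviations of 2 CMP arrays mirror each other, so these values are not independent. CDP 3, with a number that no CMP array has, correlated at 0.326 with CMP 2. The values do not show that numbers mark shared samples. There were 337 alternative values for 20 other named probe sets, those of S1pr2 not among them. Of these values 272 kept direction and call, 51 lost the call, 9 gained one and 5 reversed. The reversed values were Ccl3 at 0.44 with array weights and 0.60 and 0.87 without CDP 1 and without CMP 2, and Ccl4 at 0.015 with the replicate block and without CDP 3. Leaving out single arrays gave -0.88 to 0.87 for Ccl3 and -0.65 to 0.015 for Ccl4. The cause was not tested. Other alternatives left all counts within 1.5 times.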
